A study of Mus musculus with 6 samples.

Results

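NKp46+ cells of the intestine were compared with NKp46+ cells of the spleen. The comparison takes the 2 intestine arrays and the 2 spleen arrays of a series of 6, chosen by their titles. The remaining 2 arrays, of skin, shared the fit and are given only beside single genes. The cells were sorted as CD45+ CD3- Nkp46+ and, in the spelling of the labels, NK11+, from male C57BL/6 mice aged 12 weeks that carried the RAG-2-KO allele. Both tissues share that deletion, so no sample comes from mice with their own T or B cells. The intestine samples are named after the gut lamina propria. The labels do not say whether replicates came from separate mice or from pools, so p-values measure the spread between these arrays, which may be technical. The comparison asks how cells that share this receptor differ between a lymphoid organ and a mucosal tissue.

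Natural killer (NK) cells and some innate lymphoid cells (ILCs), lymphocytes without rearranged antigen receptors, carry the activating receptor NKp46. NK cells circulate and kill with perforin and granzymes. ILCs of the gut wall are mostly resident, depend on cytokines such as interleukin 7 and read mediators of epithelium, nerves and stroma. Stimulated lymphocytes switch on early response genes within minutes to hours, among them AP-1 and NF-kappaB factors and the inhibitors that end their action.

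Levels are log2 of the deposited bead signal plus 16, after quantile normalization, so a signal of 0 before normalization stands at 4. Differences are intestine minus spleen on that scale, ± SE of the fit, with n = 2 arrays a tissue. Genes tested had a probe detected (detection p under 0.01) on both arrays of at least 1 of the 2 tissues. A gene was called where limma's adjusted p was under 0.05. Of 13148 genes tested, 6648 were called (50.6% of all tested), 2829 higher in intestine (21.5%) and 3819 lower (29.0%). Only 920 (7.0%) were both called and at least 2-fold higher, and 976 (7.42%) at least 2-fold lower. A further 890 (6.77%) were called with a rise of 1.5-fold to 2-fold and 1598 (12.2%) with such a fall, and 1019 (7.75%) and 1245 (9.47%) with less. Each list below is read against these shares. Rises made up 42.6% of the calls, but 58.2% with arrays scaled to equal medians, 25.7% with the deposited scaling alone and 11.8% with arrays scaled on ribosomal protein genes. The median of all genes was -0.06, and it moved to 0.10, -0.27 and -0.54 under those scalings. With the slide as a block, since replicate I of both tissues shared 1 slide and replicate II another, 7119 genes were called, 3068 higher and 4051 lower. All 6648 called genes had the same direction within each slide, which largely follows from their being called on these same arrays. Without spleen replicate 1 the calls dropped to 4136, and without spleen replicate 2 to 4157. Ribosomal protein scaling, chosen after the data were seen, gave the lowest median, so its counts stand beside each function list with more rises than falls. Another setting, or a left-out array, stands there only where it moved the larger count of a list by over 1.5 times or turned the balance. Of the 44 genes named below as not passing, 37 passed under at least 1 of 17 alternatives, most often another scaling. Of the genes named below, Ramp3, P2rx7, Sik1, Areg, Atf3, Tnfrsf10b, Sqle and Cxcl10 were detected on 1 of the 2 spleen arrays. Ep300, Batf3, Gins3, Per3, Mr1, Fcgr2b and Cx3cr1 were detected on 1 of the 2 intestine arrays. In bulk samples fewer cells of a type and less RNA per cell cannot be told apart.

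**Figure D1:**
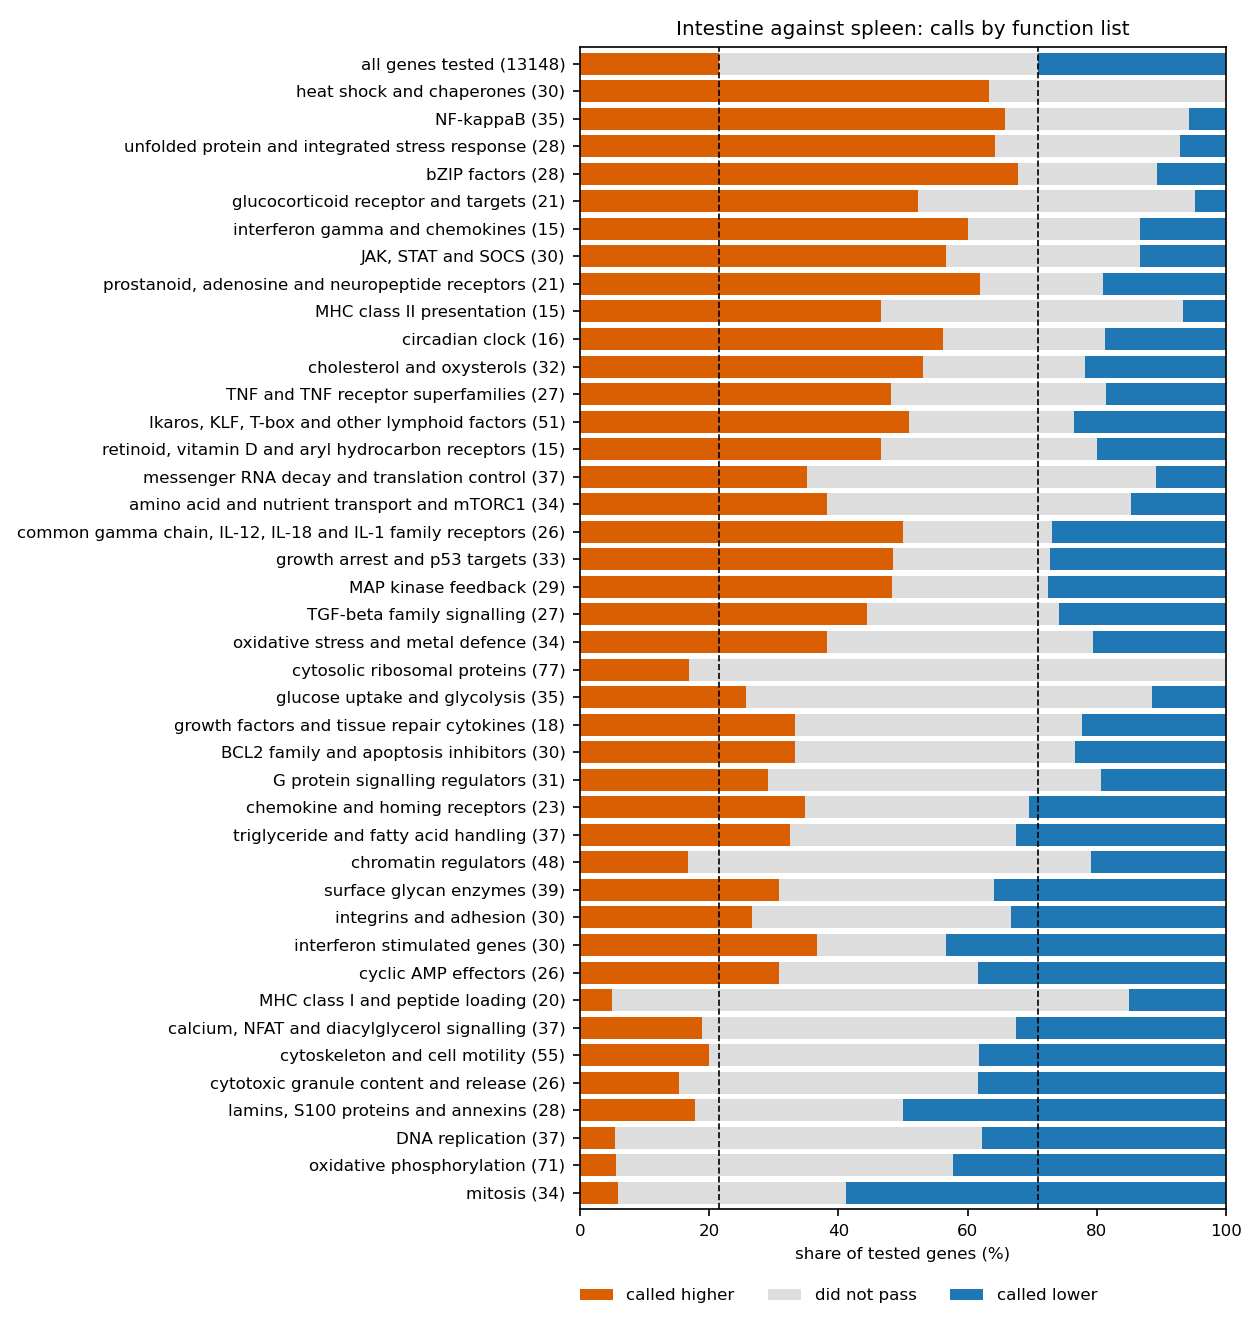
Share of the tested members of each function list that were called higher (orange), called lower (blue) or did not pass (grey), intestine against spleen, limma adjusted p under 0.05; the number tested stands beside each name. The top bar gives all 13148 genes tested, and the dashed lines carry its 21.5% higher and 29.0% lower across the plot.

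The sorted surface markers were present in both tissues. Levels of Ncr1, which encodes NKp46, were 6.46 and 5.89 in spleen and 4.89 and 5.0 in intestine. Both intestine arrays were lower, by -1.23 ± 0.18 (limma adjusted p = 3.8e-04). Klrb1c, the NK1.1 antigen, fell by 1.03 ± 0.14 and Ptprc, the CD45 antigen, fell by 0.71 ± 0.15, where other probes of Ptprc gave -0.60 to -0.14. Cd3e was detected on none of the 4 arrays. Of 23 measured NK cell markers, 15 fell and 4 rose. Their summed deposited signal was 45459 and 45118 in spleen and 27039 and 29192 in intestine. Of 15 tested ILC3 markers, 12 rose and 1 fell, with sums of 1674 and 1742 in spleen and 6107 and 5353 in intestine. Rora alone gave 108 and 157 of these sums in spleen and 2093 and 1445 in intestine. It also stands in the ILC2 list, as Kit does in the mast cell list. Of the 23 ILC3 genes on the array, 6 were detected on none of the 4 arrays. Among them were Il23r, Il17f and Il22, the effector cytokine of that type.

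Markers of other cells moved with the comparison. Of 18 tested genes of macrophages, monocytes and dendritic cells, 13 fell and 1 rose. Most of those that fell passed the filter only through spleen, and over members detected on all 4 arrays 1 fell and 1 rose. The sum over the 33 listed was 1358 and 1310 in spleen and 421 and 435 in intestine. Erythroid genes summed to 12531 and 18422 in spleen and 3442 and 2690 in intestine, and 8 of 16 tested fell and 2 rose. Over erythroid members detected on all 4 arrays, 4 fell and 2 rose. The globin Hbb-b1 stood at levels of 13.13 and 13.71 in spleen and 9.46 and 8.94 in intestine. The risers were Tfrc and Car2, a carbonic anhydrase that alone gave 607 and 569 of these sums in spleen and 1899 and 1671 in intestine. Gut epithelium genes summed to 156 and 171 in spleen and 217 and 313 in intestine. Cdh1, which also stands in the adhesion list, alone gave 61.1 and 84.5 of the intestine sums and was detected on neither spleen array. Of the 35 gut epithelium genes on the array, 21 were detected on none of the 4 arrays, among them Epcam, Krt8 and Fabp1. B and plasma cell markers stayed near background, with 13 of 18 detected on none. Neutrophil genes set the spleen arrays apart, with sums of 73.1 and 242 in spleen and 90.9 and 61.1 in intestine. Of these genes 2 were detected on spleen replicate 1 and 7 on spleen replicate 2, where S100a8 had signals of 2.92 and 81.1. Of 12 tested T cell genes 7 rose, among them Ctla4 and Cd3g, and 3 fell, namely Lat, Cd8b1 and Ubash3a, of which Lat and Cd8b1 were not called without either spleen array. The part of these cells in the results below was not tested.

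The promoter sequences of 6 genes are shown because these genes rose in the intestine and carry motifs of factor families described next. They are from RefSeq (GRCm38.p6), 250 bases before to 50 after the start, 5′ to 3′ on the strand of the gene, with the motif in capitals. Areg and Dusp1 hold TGACGTCA, the cyclic AMP response element bound by CREB family factors. Nfkbia and Nfkb2 hold an NF-kappaB site (GGGA, any base, TTTCC) or its reverse complement. Nfkb2 also holds TGAATCA, a match to the AP-1 search pattern TGANTCA, in which the middle base was left free. Hsph1 and Hspd1 hold the element bound by heat shock factors (GAA, any 2 bases, TTC, any 2 bases, GAA) or its reverse complement, a motif added after the data were seen, with 2 overlapping matches in Hspd1. All motifs were searched on both strands.
Areg (chr5:91139349-91139648, + strand): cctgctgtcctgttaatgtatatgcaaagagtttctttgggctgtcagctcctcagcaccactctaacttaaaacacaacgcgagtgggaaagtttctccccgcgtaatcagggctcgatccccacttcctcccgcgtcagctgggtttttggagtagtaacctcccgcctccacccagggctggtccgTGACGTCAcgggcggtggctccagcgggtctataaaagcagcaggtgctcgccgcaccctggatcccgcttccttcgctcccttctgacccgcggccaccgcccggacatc
Dusp1 (chr17:26508423-26508722, - strand): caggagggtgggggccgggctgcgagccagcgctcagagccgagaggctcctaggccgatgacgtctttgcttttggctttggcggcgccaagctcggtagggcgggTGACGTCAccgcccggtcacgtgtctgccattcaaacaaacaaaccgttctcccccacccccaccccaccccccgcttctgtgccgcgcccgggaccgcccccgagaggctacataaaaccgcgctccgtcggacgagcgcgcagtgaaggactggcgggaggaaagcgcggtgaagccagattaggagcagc
Nfkbia (chr12:55492598-55492897, - strand): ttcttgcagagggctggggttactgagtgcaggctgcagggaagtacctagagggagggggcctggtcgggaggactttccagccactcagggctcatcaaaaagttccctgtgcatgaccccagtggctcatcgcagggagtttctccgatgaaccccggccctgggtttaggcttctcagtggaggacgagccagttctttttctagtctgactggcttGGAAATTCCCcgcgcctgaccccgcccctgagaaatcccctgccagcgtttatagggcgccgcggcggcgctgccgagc
Nfkb2 (chr19:46305445-46305744, + strand): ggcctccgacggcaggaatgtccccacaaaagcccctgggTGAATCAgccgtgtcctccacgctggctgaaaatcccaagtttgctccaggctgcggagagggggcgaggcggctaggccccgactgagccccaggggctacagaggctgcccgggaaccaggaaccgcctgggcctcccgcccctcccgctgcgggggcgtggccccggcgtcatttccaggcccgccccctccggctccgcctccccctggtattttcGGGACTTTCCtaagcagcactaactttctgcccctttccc
Hsph1 (chr5:149636287-149636586, - strand): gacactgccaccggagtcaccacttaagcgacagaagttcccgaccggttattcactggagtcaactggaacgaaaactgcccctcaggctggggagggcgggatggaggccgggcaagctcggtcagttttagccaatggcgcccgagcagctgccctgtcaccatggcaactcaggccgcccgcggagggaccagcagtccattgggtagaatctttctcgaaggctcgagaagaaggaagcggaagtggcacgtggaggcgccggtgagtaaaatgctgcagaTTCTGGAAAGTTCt
Hspd1 (chr1:55087883-55088182, - strand): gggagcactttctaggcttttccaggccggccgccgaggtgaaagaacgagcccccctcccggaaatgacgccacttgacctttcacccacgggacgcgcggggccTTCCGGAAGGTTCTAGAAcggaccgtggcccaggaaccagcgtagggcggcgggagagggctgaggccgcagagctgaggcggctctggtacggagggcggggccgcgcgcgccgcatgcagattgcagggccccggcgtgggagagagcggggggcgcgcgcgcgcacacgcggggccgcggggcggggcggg

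The cyclic AMP response element was in 4.14% of the promoters of genes called higher, 2.46% of those called lower, 3.0% of those of all genes tested and 1.79% of the 32851 promoters in the table. The NF-kappaB motif was in 3 of 26 promoters of the NF-kappaB genes called higher (11.5%), against 0.453% for genes tested and 0.411% of all. Over the whole NF-kappaB list, called or not, it was in 5 of 39 (12.8%), so its share was not particular to the members that rose. Among all genes called and at least 2-fold higher it was in 0.833%, and among those at least 2-fold lower in 0.943%. The heat shock element was in 6 of 20 promoters of the chaperone genes called higher (30.0%), against 0.569% for genes tested and 0.603% of all. Over the whole chaperone list it was in 7 of 33 (21.2%). The AP-1 pattern, whose middle base was left free, was in 6.47% of promoters of genes called higher and 4.74% of those called lower. It was in 5.2% for genes tested and 7.81% of all. Of the 13148 genes tested, 8136 had a promoter in the table. The table holds several starts for some genes, and a match is a description of the letters only.

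More receptors for tissue mediators were called higher than lower in the intestine. Of 21 tested receptors and partners for prostanoids, nucleotides, neuropeptides and oxysterols, 13 rose and 4 fell, with a median difference of 0.53 against -0.06 over all genes (5 rose and 4 fell with ribosomal protein scaling, 8 and 2 with an offset of 64, 8 and 3 without spleen replicate 1, 7 and 1 without spleen replicate 2). Levels of Ramp3, which turns the calcitonin receptor-like receptor into one for adrenomedullin and related peptides, were 4.42 and 4.38 in spleen and 7.43 and 7.36 in intestine. Its difference was 2.99 ± 0.13 (limma adjusted p = 2.0e-07), and skin stood at 4.63 and 4.55, as low as spleen. Gpr183 guides cells along oxysterols. Its levels were 5.06 and 5.3 in spleen and 7.99 and 8.23 in intestine, a rise of 2.93 ± 0.15 (adjusted p = 4.9e-07). P2rx7, the channel opened by extracellular ATP, rose by 1.74 ± 0.17 and P2ry10, a receptor for lysophospholipids, by 1.26 ± 0.18. P2ry14, a receptor for UDP-glucose, fell by 0.72 ± 0.14. Calca, which encodes calcitonin and CGRP, a peptide of sensory nerves, was detected on both intestine arrays and neither spleen array, at levels of 4.12 and 4.08 in spleen and 8.02 and 8.04 in intestine. That is at least 12.4-fold higher in intestine, though another Calca probe gave 0.88. Such bounds set the mean of the brighter tissue against, on each dim array, the higher of the gene's own level and the lowest level detected there.

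Within the cyclic AMP pathway the tissues differed by family member. Of 26 tested members 8 rose and 10 fell (median -0.05; 5 rose and 16 fell with ribosomal protein scaling, 9 and 8 with equal medians, 7 and 5 without spleen replicate 1, 8 and 5 without spleen replicate 2, 9 and 8 without intestine replicate 1). Levels of Crem, which encodes an activator and, from an inner promoter, the repressor ICER, were 5.41 and 5.46 in spleen and 10.18 and 10.06 in intestine. The rise was 4.68 ± 0.17 (limma adjusted p = 1.2e-07), while another Crem probe showed 0.10, and the probes cannot be assigned to an isoform here. Phosphodiesterases break down cyclic AMP. Pde4d stood at 4.54 and 4.62 in spleen and 7.16 and 6.95 in intestine, a rise of 2.48 ± 0.20, and Pde4b rose by 1.1 ± 0.15. Sik1, a kinase that restrains the CREB coactivators, rose by 1.53 ± 0.26. In the opposite direction went Adcy7, an adenylyl cyclase of lymphoid cells, at 9.57 and 9.43 in spleen and 7.0 and 7.24 in intestine. It fell by 2.38 ± 0.14 (adjusted p = 1.2e-06), and the kinase catalytic subunit Prkacb fell by 0.99 ± 0.18. Ep300, a coactivator of CREB, fell by 0.98 ± 0.14. Pde2a and Pde7a, at -0.05 and 0.10, did not pass. Areg encodes amphiregulin, which acts on epithelium through the epidermal growth factor receptor. This gene, whose promoter is printed above, stood at 4.35 and 4.4 in spleen and 8.15 and 7.92 in intestine. The rise was 3.66 ± 0.14 (adjusted p = 1.2e-07), with skin at 4.37 and 4.37.

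The bZIP factors, which include AP-1, ATF, MAF and C/EBP proteins, mostly rose. Of 28 tested, 19 rose and 3 fell, with a median of 1.03 (14 rose and 6 fell with ribosomal protein scaling). Atf3, a stress-induced repressor, stood at 4.01 and 4.42 in spleen and 9.43 and 8.65 in intestine. Intestine exceeded spleen by 4.82 ± 0.24 (limma adjusted p = 4.6e-07), and skin lay at 5.85 and 5.63. Maff, a small MAF protein, rose by 4.07 ± 0.20 from 5.11 and 5.09 in spleen. Fosl2 rose by 2.7 ± 0.18, Junb by 2.54 ± 0.17 and Cebpb by 2.62 ± 0.18. Fos itself rose less, by 1.23 ± 0.27, with levels of 10.01 and 10.93 in spleen and 11.99 and 11.41 in intestine and skin at 11.64 and 11.56. The spleen arrays differed for Fos and Jun, and both intestine arrays remained above both. Nfil3, a factor needed for NK and ILC development, rose by 1.89 ± 0.13. Nfe2, an erythroid and platelet factor, fell and was detected on neither intestine array. Batf3 fell by 0.98 ± 0.19 and Bach2 fell by 0.69 ± 0.15, the latter not called without spleen replicate 2. More erythroid markers fell than rose, as given above, and the part of such cells in the fall of Nfe2 was not tested.

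NF-kappaB genes rose among subunits, inhibitors and adaptors. Of 35 tested, 23 rose and 2 fell, with a median of 1.02 (19 rose and 10 fell with ribosomal protein scaling). Among the subunits, Rel stood at 4.72 and 4.81 in spleen and 8.72 and 8.05 in intestine, a rise of 3.62 ± 0.20 (limma adjusted p = 8.2e-07). Nfkb1 rose by 2.5 ± 0.14, Nfkb2 by 2.48 ± 0.13, Relb by 1.98 ± 0.14 and Rela by 0.73 ± 0.13. Levels of Nfkb2 were 6.06 and 6.0 in spleen and 8.49 and 8.53 in intestine, with skin at 5.78 and 5.86. The inhibitors, which are textbook targets of the same factors, rose as well. Nfkbia was at 7.04 and 7.16 in spleen and 9.26 and 8.61 in intestine, a difference of 1.84 ± 0.24. Nfkbib rose by 1.95 ± 0.22, Nfkbie by 2.3 ± 0.16 and Nfkbiz by 2.37 ± 0.16. Tnfaip3, the ubiquitin-editing enzyme A20, rose by 2.75 ± 0.21 and its partner Tnip1 by 2.0 ± 0.14. The TRAF adaptors moved both ways. Traf4 stood at 6.0 and 5.93 in spleen and 9.87 and 9.78 in intestine and rose by 3.86 ± 0.13 (adjusted p = 8.5e-08), and Traf1 rose by 2.32 ± 0.14. Traf2 fell by 0.73 ± 0.13. The kinase genes Chuk, at -0.003, and Ikbkb, at 0.19, did not pass the test. Map3k14, the kinase of the noncanonical branch, rose by 2.58 ± 0.14 on its main probe and by 0.54 on another.

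**Figure D2:**
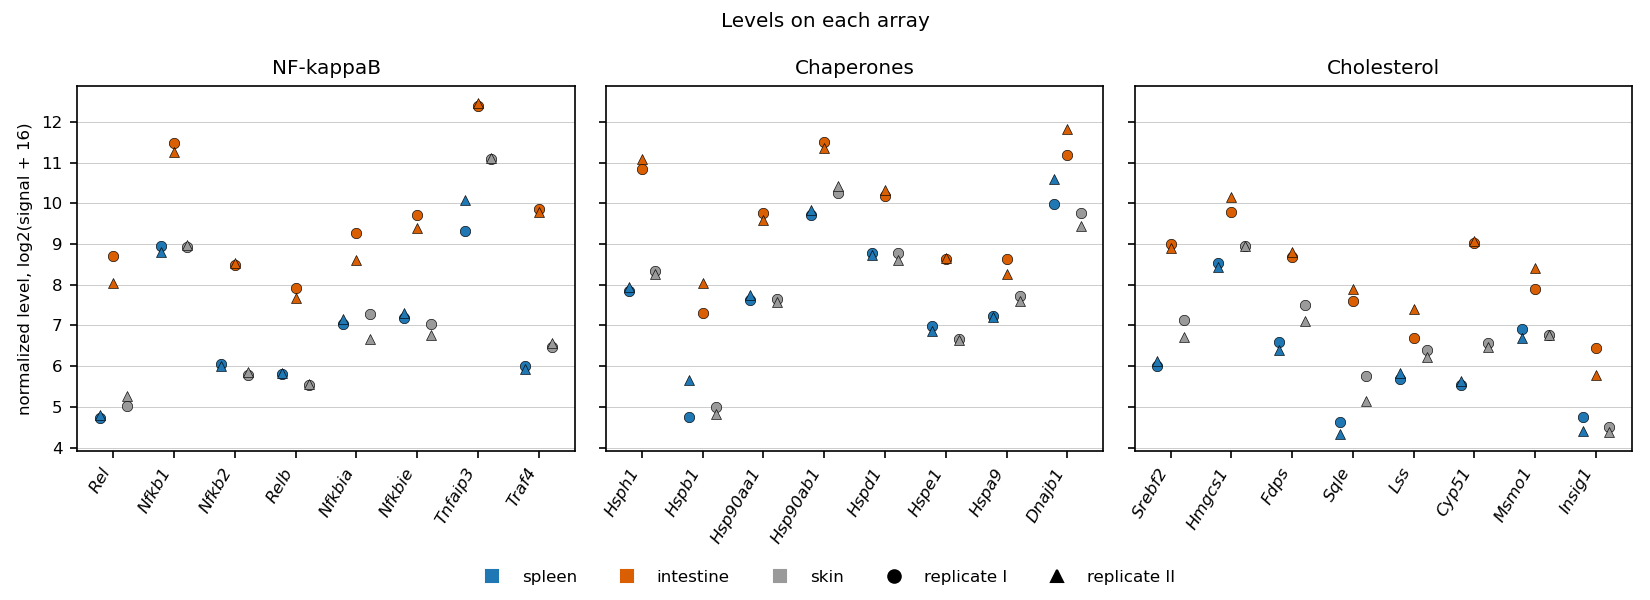
Log2 levels on each array of 8 genes each from the NF-kappaB, chaperone and cholesterol lists, in spleen (blue), intestine (orange) and skin (grey); each point is 1 array, with circles for replicate I and triangles for replicate II. The genes were picked after their values were seen, from members that rose, and members that fell or did not pass are not shown. In all 24 genes both intestine points lie above both spleen points, which follows from that choice. Both skin points lie below both intestine points.

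Feedback inhibitors of MAP kinases rose in part. Of 29 tested genes 14 rose and 8 fell, with a median of 0.26 (11 rose and 13 fell with ribosomal protein scaling). Dusp phosphatases inactivate MAP kinases. Dusp4 was detected on neither spleen array and stood at 3.81 and 3.97 in spleen and 7.23 and 6.59 in intestine, at least 5.71-fold higher in intestine. Dusp16 rose by 1.9 ± 0.13, Dusp1 by 1.83 ± 0.28, Dusp6 by 1.6 ± 0.29 and Dusp10 by 1.45 ± 0.18. The levels of Dusp1, whose promoter is printed above, were 10.28 and 11.07 in spleen and 12.85 and 12.17 in intestine, and skin lay at 12.38 and 12.05. Dusp19 fell by 0.95 ± 0.17. The Ras inhibitors Rasa1 and Rasa3 changed by -1.77 ± 0.14 and -1.92 ± 0.15. The kinases Mapkapk3 and Map2k3, on the p38 branch, rose by 2.15 ± 0.15 and 1.33 ± 0.20.

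Regulators of G protein signalling moved both ways. Of 31 tested, 9 rose and 6 fell (5 rose and 18 fell with ribosomal protein scaling, 6 and 11 with the deposited scaling). Rgs16 stood at 4.92 and 5.4 in spleen and 8.5 and 8.46 in intestine, a rise of 3.33 ± 0.17 (limma adjusted p = 4.6e-07). Rgs1, which damps chemokine receptor signals, rose by 3.01 ± 0.24 and Rgs2 by 1.79 ± 0.32. Levels of Rgs1 were 9.52 and 10.3 in spleen and 12.92 and 12.93 in intestine. Skin, at 10.19 and 10.66, overlapped spleen and lay below both intestine arrays. The G protein subunit Gna13 rose by 1.68 ± 0.13, whereas Gna11 fell by 0.77 ± 0.14 and Gng10 fell by 0.82 ± 0.13. Gnai2, the main inhibitory subunit of lymphocytes, showed -0.03 ± 0.15 and did not pass (adjusted p = 0.89).

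Calcium and diacylglycerol genes were called about as often as all genes. Of 37 tested, 7 rose (18.9%) and 12 fell (32.4%; 4 rose and 28 fell with ribosomal protein scaling, 5 and 22 with the deposited scaling, 5 and 7 without spleen replicate 1). Orai1, the pore of the store-operated calcium channel, was at 6.98 and 6.88 in spleen and 10.01 and 10.32 in intestine. It rose by 3.23 ± 0.15 (limma adjusted p = 2.6e-07), while Orai3 fell by 0.90 ± 0.15 and the sensor Stim1 showed 0.13 ± 0.13 and did not pass. Among protein kinase C genes Prkch rose by 1.15 ± 0.14, but Prkcb stood at 10.32 and 10.28 in spleen and 8.98 and 8.95 in intestine and fell by 1.34 ± 0.13. Prkcq, the isoform of T cell receptor signalling, fell by 1.87 ± 0.14 on its main probe and gave -0.42 on another. Calcineurin's catalytic gene Ppp3ca fell by 0.62 ± 0.13, and Rasgrp2, an activator of Rap1 and hence of integrins, fell by 1.13 ± 0.13.

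Chaperone genes mostly rose. Of 30 tested, 19 rose, none fell and 11 did not pass, with a median of 1.01 (15 rose and 6 fell with ribosomal protein scaling). Hsph1, an HSP110 nucleotide exchange factor whose promoter is printed above, was at 7.84 and 7.93 in spleen and 10.84 and 11.09 in intestine. Both intestine arrays exceeded spleen, by 3.07 ± 0.14 (limma adjusted p = 2.7e-07), with skin at 8.34 and 8.27. Hspb1, a small heat shock protein, rose by 2.47 ± 0.29, the inducible Hsp90aa1 by 1.99 ± 0.14 and its constitutive partner Hsp90ab1 by 1.67 ± 0.14. The mitochondrial pair Hspd1 and Hspe1, which share 1 promoter region, rose by 1.51 ± 0.14 and 1.73 ± 0.13, and mitochondrial Hspa9 by 1.24 ± 0.15. Levels of Hspd1 were 8.78 and 8.72 in spleen and 10.19 and 10.33 in intestine. Of the HSP40 cochaperones Dnajb6 rose by 2.27 ± 0.15 and Dnajb1 by 1.2 ± 0.25. The factor gene Hsf1 itself showed 0.16 ± 0.15 and did not pass (adjusted p = 0.39). Hspa1a, an inducible HSP70 gene, showed -0.09 ± 0.43 and did not pass. Its near-identical copy Hspa1b gave 1.19 ± 0.23, with another probe at -0.64 and a call lost with the mean over probes and with ribosomal protein scaling, and probes may not separate these 2 copies. Most chaperonin ring subunits did not pass, such as Tcp1 at 0.15.

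The unfolded protein and integrated stress responses, which slow translation and raise folding capacity, mostly rose. Of 28 tested 18 rose and 2 fell, with a median of 0.73 (11 rose and 8 fell with ribosomal protein scaling). Ppp1r15a, which restores translation by directing a phosphatase to eIF2, was at 6.63 and 7.3 in spleen and 10.18 and 9.63 in intestine. Its rise was 2.94 ± 0.24 (limma adjusted p = 9.0e-06). Trib3 was detected only on the intestine arrays, at least 5.73-fold higher. Ddit3 (CHOP) rose by 2.28 ± 0.14, Atf4 by 1.58 ± 0.15 and Hspa5 (BiP) by 1.96 ± 0.22. Levels of Xbp1 were 9.24 and 9.16 in spleen and 10.46 and 10.48 in intestine, a rise of 1.27 ± 0.13. The genes of the reticulum were not uniform, since Pdia4 gave -0.38 ± 0.20 and Pdia3 -0.08 ± 0.13, neither passing. Among the eIF2 kinases Eif2ak2, the sensor of double-stranded RNA, fell by 1.07 ± 0.14.

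Growth arrest genes moved both ways, and most mitosis genes fell. Of 33 tested arrest and p53-related genes, 16 rose and 9 fell (11 rose and 14 fell with ribosomal protein scaling). Cdkn1a (p21) stood at 5.4 and 5.64 in spleen and 10.14 and 9.62 in intestine, a rise of 4.36 ± 0.18 (limma adjusted p = 1.6e-07), and Cdkn1c rose by 1.76 ± 0.22. Plk3 rose by 3.63 ± 0.18, and the 3 Gadd45 genes by 3.14 (Gadd45b), 1.5 (Gadd45a) and 1.22 (Gadd45g). The antiproliferative Tob2 rose by 2.54 ± 0.16 and Tob1 by 1.41 ± 0.18. Some other p53 targets did not follow. Zmat3 fell by 1.17 ± 0.16 and Tigar fell by 1.29 ± 0.15, and Mdm2, at -0.12, did not pass. Cyclin Ccnd3 fell by 1.17 ± 0.15, at levels of 7.27 and 7.17 in spleen and 5.98 and 6.12 in intestine. Of 34 tested mitosis genes, 20 fell and 2 rose (10 fell and 2 rose over members detected on all 4 arrays, 10 and 1 without spleen replicate 2). Of 37 replication genes 14 fell (37.8%), 2 rose and 21 did not pass (30 fell and 0 rose with ribosomal protein scaling, 24 and 0 with the deposited scaling, 9 and 3 over members detected on all 4 arrays, 7 and 1 without spleen replicate 1, 7 and 0 without spleen replicate 2). Nusap1, a spindle protein, was at 6.37 and 6.67 in spleen and 5.28 and 5.1 in intestine and fell by 1.33 ± 0.15, and the condensin Smc2 fell by 1.28 ± 0.16. Skin lay at 7.93 and 8.11 for Nusap1. The mitosis genes that rose were Cenpa, the centromeric histone, by 1.69 ± 0.14 and the checkpoint kinase Bub1 by 0.60 ± 0.20. The call of Bub1 was lost under 6 alternatives, among them without either spleen array. Among the S phase genes Gins3 fell by 1.17 ± 0.19 and Rpa3 fell by 1.35 ± 0.13, while Pcna, at 0.29, did not pass. E2f2, in no list, was detected on neither intestine array, at least 5.38-fold lower.

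Survival genes of the BCL2 family moved both ways. Of 30 tested 10 rose and 7 fell (4 rose and 16 fell with ribosomal protein scaling, 7 and 13 with the deposited scaling). Bcl2a1b stood at 9.23 and 9.2 in spleen and 12.45 and 12.56 in intestine, a rise of 3.29 ± 0.13 (limma adjusted p = 1.5e-07), with Bcl2a1a and Bcl2a1d alike. These are near-identical copies whose probes may not separate them. Mcl1, a survival protein on which NK cells depend, went the opposite way at 10.52 and 10.64 in spleen and 9.63 and 9.66 in intestine. It fell by 0.93 ± 0.13 (adjusted p = 2.7e-04). Bcl2 showed 0.41 ± 0.17, with other probes at -0.36 to 0.13, and did not pass. On the death side Bid fell by 1.37 ± 0.18 and Casp9 fell by 1.9 ± 0.16, and the death receptor Tnfrsf10b rose by 1.21 ± 0.15.

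Clock and glucocorticoid genes overlapped in Per1. Of 16 tested clock genes 9 rose and 3 fell (6 rose and 6 fell with ribosomal protein scaling). Per1 was at 4.74 and 5.4 in spleen and 9.02 and 8.94 in intestine, a rise of 3.91 ± 0.21 (limma adjusted p = 6.1e-07), and skin lay at 8.15 and 8.46. The other Period genes went down. Per2 fell by 0.78 ± 0.13 and Per3 fell by 0.70 ± 0.18, though the call of Per3 was lost without spleen replicate 2. Nr1d2, a clock repressor, rose by 2.41 ± 0.17 and Bhlhe40 by 2.0 ± 0.17. The core activator Clock, at -0.13, and Arntl, at 0.53, did not pass. Of 21 tested glucocorticoid genes 11 rose and 1 fell (median 0.52; 8 rose and 5 fell with ribosomal protein scaling). Mt1, a metallothionein, rose by 2.54 ± 0.27, Klf9 by 1.71 ± 0.22 and Errfi1 by 1.74 ± 0.13. The standard targets Fkbp5, at -0.08, and Sgk1, at -0.04, did not pass. Hsd11b1, which regenerates active glucocorticoid inside cells, was at 11.22 and 11.22 in spleen and 8.86 and 9.15 in intestine and fell by 2.21 ± 0.15 (adjusted p = 2.3e-06).

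More genes of the cholesterol list rose than fell. Of 32 tested genes 17 rose and 7 fell, with a median of 0.47, which ribosomal protein scaling moved to -0.10 (13 rose and 11 fell with ribosomal protein scaling). Srebf2, the controlling factor, stood at 6.01 and 6.13 in spleen and 9.01 and 8.89 in intestine, a rise of 2.88 ± 0.16 (limma adjusted p = 8.0e-07). Hmgcs1, an early enzyme of the synthesis route, was at 8.55 and 8.43 in spleen and 9.79 and 10.17 in intestine and rose by 1.49 ± 0.15. Downstream, Fdps rose by 2.26 ± 0.16, Sqle by 3.26 ± 0.21, Lss by 1.3 ± 0.21, Cyp51 by 3.48 ± 0.13 and Msmo1 by 1.34 ± 0.18. Cyp51 lay at 5.53 and 5.63 in spleen and 9.04 and 9.07 in intestine, with skin at 6.56 and 6.46. The feedback gene Insig1 rose by 1.55 ± 0.21, but Insig2 fell by 0.92 ± 0.14. Npc1, which exports sterol from lysosomes, fell by 1.37 ± 0.14 on its main probe, with others at -0.22 to 0.03. Mylip, a ubiquitin ligase, was detected on neither intestine array. Soat1, which esterifies cholesterol, rose by 2.25 ± 0.14, with other probes at -0.47 to -0.38.

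Fatty acid genes moved both ways. Of 37 tested 12 rose and 12 fell (5 rose and 22 fell with ribosomal protein scaling, 7 and 18 with the deposited scaling, 7 and 10 without spleen replicate 1, 7 and 8 without spleen replicate 2). Dgat1, which makes triglyceride, and Hilpda, a lipase inhibitor of lipid droplets, rose by 5.43 ± 0.18 and 4.15 ± 0.16. At the preceding steps Lpin1 was at 8.62 and 8.53 in spleen and 7.26 and 7.42 in intestine and fell by 1.23 ± 0.13 (limma adjusted p = 5.1e-05), and Agpat2 fell by 1.01 ± 0.16. G0s2, a lipase inhibitor, was detected on neither intestine array, at least 3.24-fold lower. Elovl5 and Fads1, which make polyunsaturated fatty acids, rose by 1.62 ± 0.13 and 1.54 ± 0.19. Scd2, which makes monounsaturated ones, was at 10.05 and 9.88 in spleen and 7.87 and 7.86 in intestine and fell by 2.1 ± 0.14, and Elovl6, an elongase, fell by 1.01 ± 0.15. Cpt2, of mitochondrial fatty acid oxidation, fell by 1.8 ± 0.18 (adjusted p = 3.7e-05). Fasn, at -0.23, did not pass.

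Most glucose genes did not pass the test. Of 35 tested 9 rose, 4 fell and 22 did not pass (5 rose and 19 fell with ribosomal protein scaling, 15 and 3 with equal medians). Hk2 stood at 5.24 and 5.18 in spleen and 10.3 and 9.91 in intestine, a rise of 4.9 ± 0.17 (limma adjusted p = 8.5e-08), while Hk1 gave 0.22 ± 0.16, another probe -0.23, and did not pass. Slc2a6, a glucose carrier, rose by 2.43 ± 0.16, and Pygl, which releases glucose from glycogen, by 1.56 ± 0.13. Ldha, Eno1 and Pgk1 gave 0.26, 0.09 and 0.14 and did not pass. Slc7a5, a carrier of large neutral amino acids, was at 5.45 and 5.43 in spleen and 8.45 and 7.9 in intestine, a rise of 2.73 ± 0.18 (adjusted p = 1.9e-06), and its heavy chain Slc3a2 rose by 1.3 ± 0.26. Slc16a10, a carrier of aromatic amino acids, rose by 3.21 ± 0.13. Myc, a driver of such carriers, rose by 1.94 ± 0.25, and its antagonist Mxd1 by 1.56 ± 0.14.

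In redox and iron handling, 13 of 34 tested genes rose and 7 fell (9 rose and 17 fell with ribosomal protein scaling). Osgin1, a growth inhibitor induced by oxidative stress, was detected only on the intestine arrays, at least 32.5-fold higher. Sqstm1 (p62) stood at 9.26 and 9.49 in spleen and 12.38 and 11.93 in intestine, a rise of 2.78 ± 0.17 (limma adjusted p = 1.4e-06). Of the peroxiredoxins, Prdx6 rose by 2.36 ± 0.23 and Prdx4 fell by 1.52 ± 0.13. The standard NRF2 targets Gclm, Txnrd1 and Hmox1, at -0.35, -0.16 and -0.56, did not pass. Genes of iron import and storage followed. Tfrc, the transferrin receptor, was at 6.01 and 6.03 in spleen and 8.6 and 8.01 in intestine, a rise of 2.29 ± 0.18, and the ferritin chains Fth1 and Ftl1 rose by 1.23 ± 0.15 and 0.95 ± 0.14. The exporter Slc40a1 was detected on neither intestine nor skin array, at least 4.76-fold lower in intestine than in spleen. Slc40a1 marks iron-recycling macrophages, and the part of such cells in its fall was not tested. Of the 33 genes listed for macrophages, monocytes and dendritic cells, 14 were detected on none of the 4 arrays, among them Spic and Cd163. Sums and limits of the macrophage and erythroid markers are given above.

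Cytokine receptors changed in partly opposite directions. Of 26 tested 13 rose and 7 fell (7 rose and 9 fell with ribosomal protein scaling, 8 and 8 with the deposited scaling, 8 and 6 without spleen replicate 1). Il21r stood at 5.09 and 5.16 in spleen and 8.8 and 8.85 in intestine, a rise of 3.71 ± 0.13 (limma adjusted p = 1.2e-07), and Il4ra rose by 3.19 ± 0.15. Il12rb2, the signalling chain for interleukin 12, rose by 1.63 ± 0.14, whereas Il18rap fell by 0.66 ± 0.13. Of the interleukin 10 receptor, Il10ra fell by 1.56 ± 0.14 and Il10rb fell by 1.65 ± 0.13. Levels of Il10ra were 8.64 and 8.78 in spleen and 7.2 and 7.1 in intestine. Ifngr1 rose by 1.46 ± 0.17, and Ifnar2, of the type I interferon receptor, fell by 1.22 ± 0.16. The shared gamma chain Il2rg, at 0.08, did not pass.

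Downstream, 17 of 30 JAK, STAT and SOCS genes rose and 4 fell (median 0.76; 12 rose and 10 fell with ribosomal protein scaling). Cish was at 6.91 and 7.29 in spleen and 10.64 and 10.62 in intestine, a rise of 3.53 ± 0.15 (limma adjusted p = 2.1e-07). Socs3 rose by 2.65 ± 0.23, Socs1 by 1.3 ± 0.18, and the PIM kinases by 2.42 (Pim1), 1.31 (Pim2) and 3.22 (Pim3). Stat3 was at 9.97 and 9.87 in spleen and 11.74 and 11.89 in intestine, a rise of 1.9 ± 0.14 (adjusted p = 5.0e-06), and skin at 9.59 and 9.82 lay below spleen. Stat2 and Stat6 gave -0.34 and 0.18 and did not pass. Among the kinases Jak2 rose by 2.2 ± 0.17, while Jak1, which serves interferon receptors, fell by 0.98 ± 0.17 and Tyk2 fell by 0.80 ± 0.14.

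**Figure D3:**
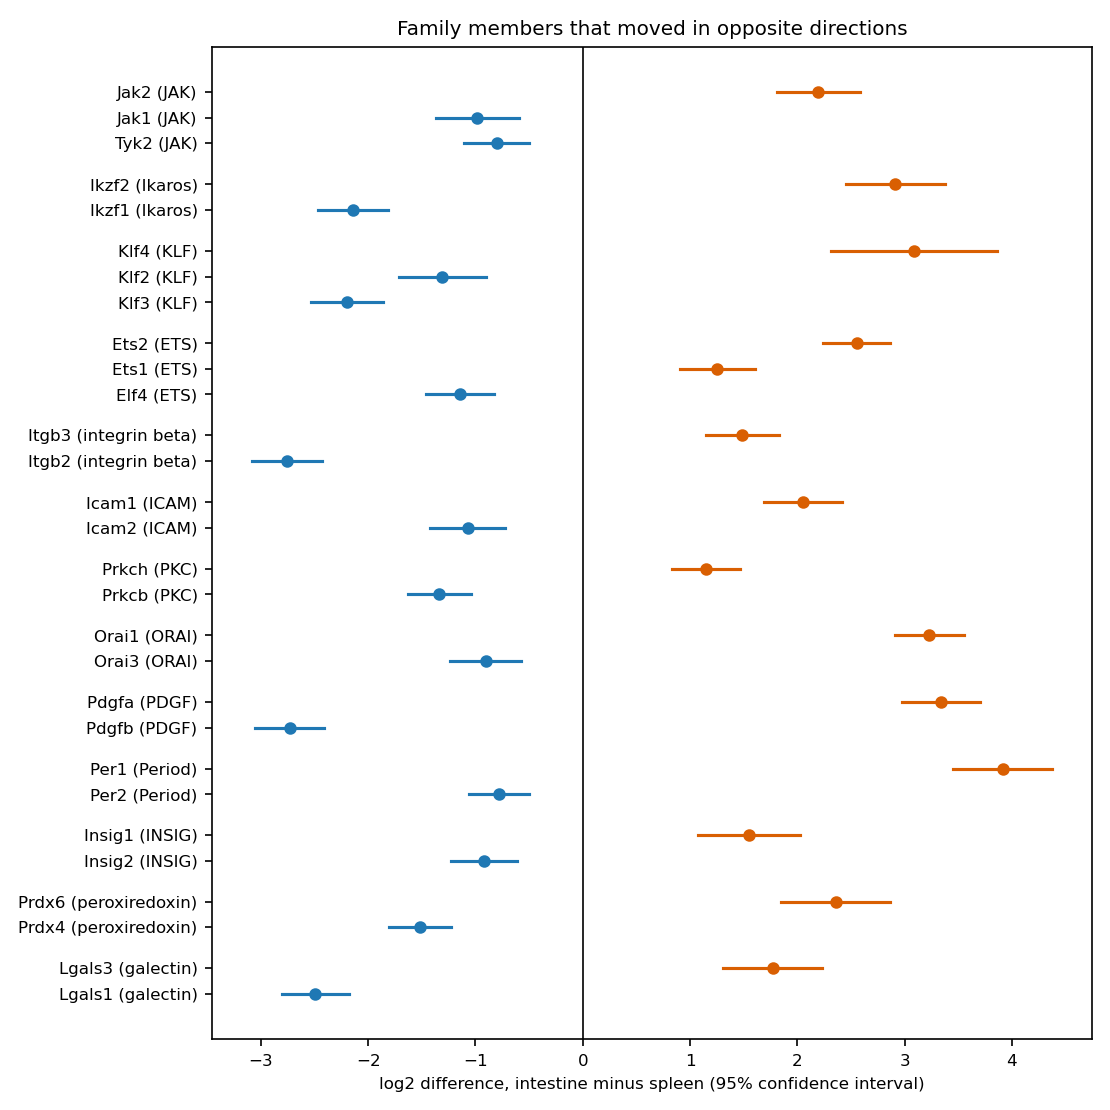
Difference of intestine minus spleen (log2, points) with the 95% confidence interval of the limma fit (bars) for 13 families, picked after their values were seen, in which 1 member rose (orange) and another fell (blue). The members of each pair or trio lie on opposite sides of 0, for example Jak2 above it and Jak1 below.

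Interferon-stimulated genes moved both ways. Of 30 tested 11 rose and 13 fell (11 rose and 9 fell with the mean over probes, 11 and 10 without spleen replicate 1, 11 and 10 without spleen replicate 2). Ifitm2 stood at 5.86 and 6.0 in spleen and 9.56 and 9.71 in intestine, a rise of 3.71 ± 0.14 (limma adjusted p = 1.2e-07), with Ifitm1 and Ifitm3 higher by 2.6 and 1.14. Isg15 rose by 2.36 ± 0.16. Ifit2, at 7.01 and 7.17 in spleen and 5.44 and 5.51 in intestine, fell by 1.61 ± 0.14 (adjusted p = 1.2e-05), Usp18 fell by 1.05 ± 0.19 and Trim30a fell by 1.15 ± 0.14. Rsad2, at -0.07, did not pass. Of 20 MHC class I genes 1 rose, 3 fell and 16 did not pass (0 rose and 11 fell with ribosomal protein scaling, 6 and 3 with equal medians, 3 and 8 with the deposited scaling). B2m gave -0.09 ± 0.13 and H2-D1 0.08 ± 0.15 and neither passed, but the equal-median scaling turned B2m to 1.01 and the deposited scaling to 0.64. Nonclassical Cd1d1 and Mr1, which show lipids and vitamin metabolites, changed by -1.25 ± 0.14 and -1.12 ± 0.20. Among class II genes, 7 of 15 rose and 1 fell (3 rose and 7 fell with ribosomal protein scaling, 4 and 1 without spleen replicate 2). Cd83 rose by 3.82 ± 0.13 and H2-Ab1 was at 6.36 and 6.69 in spleen and 8.67 and 8.38 in intestine, a rise of 2.0 ± 0.16, while the loading genes H2-DMa and H2-DMb1, at -0.22 and 0.00, did not pass.

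Among TNF family genes 13 of 27 rose and 5 fell (10 rose and 10 fell with ribosomal protein scaling). Tnf stood at 5.2 and 5.35 in spleen and 8.21 and 7.47 in intestine, a rise of 2.57 ± 0.25 (limma adjusted p = 2.6e-05). Tnfsf11 (RANKL) was detected only on the intestine arrays, at least 5.76-fold higher. Tnfrsf1b rose by 2.04 ± 0.14 and Tnfrsf18 (GITR) by 1.37 ± 0.13. Tnfsf13 (APRIL) fell by 1.31 ± 0.14. Of 18 growth factors 6 rose and 4 fell (5 rose and 8 fell with ribosomal protein scaling). Pdgfa was at 5.04 and 5.24 in spleen and 8.54 and 8.41 in intestine, a rise of 3.34 ± 0.16. Pdgfb was at 8.94 and 9.12 in spleen and 6.2 and 6.39 in intestine and fell by 2.73 ± 0.14. Csf2 rose by 2.68 ± 0.14 and Vegfa by 2.65 ± 0.20. Chemokine genes that NK cells make in abundance, Ccl3 at -0.16 and Ccl4 at 0.32, did not pass, while Cxcl10 rose by 2.13 ± 0.17 and Ifng by 1.47 ± 0.22.

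TGF-beta genes changed at the ligand and the repressors. Of 27 tested 12 rose and 7 fell (11 rose and 10 fell with ribosomal protein scaling). Tgfb1 stood at 5.82 and 5.78 in spleen and 8.26 and 8.47 in intestine, a rise of 2.56 ± 0.14 (limma adjusted p = 6.7e-07), and Furin, which cleaves the precursor, rose by 1.81 ± 0.14. The repressor Tgif1 rose by 2.7 ± 0.16, and Pmepa1, a target that limits the pathway, was at least 3.44-fold higher. Receptor gene Tgfbr2 and the common mediator Smad4, at 0.32 and 0.09, did not pass. Smad5, of the BMP branch, fell by 1.94 ± 0.16 (adjusted p = 8.6e-06). Of 15 tested retinoid and aryl hydrocarbon receptor genes 7 rose and 3 fell (3 rose and 8 fell with ribosomal protein scaling, 4 and 2 over members detected on all 4 arrays, 4 and 2 without spleen replicate 1). Tgm2, a retinoid target, rose by 2.31 ± 0.14 from levels of 5.21 and 5.3 in spleen. Ahrr, a feedback target of the aryl hydrocarbon receptor, was at least 2.02-fold higher. Ccr9, the gut homing receptor, was detected only on the intestine arrays, at 3.92 and 3.89 in spleen and 4.76 and 4.63 in intestine.

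Adhesion genes differed by chain. Of 30 adhesion genes 8 rose and 10 fell (7 rose and 19 fell with ribosomal protein scaling, 10 and 9 with equal medians). Itgb2, the shared beta chain of leukocyte integrins, was at 9.09 and 8.98 in spleen and 6.4 and 6.16 in intestine and fell by 2.75 ± 0.15 (limma adjusted p = 6.2e-07). Its partner Itgal fell by 1.35 ± 0.15, Itgam was detected on neither intestine array, and the ligand Icam2 fell by 1.07 ± 0.16. Icam1 rose by 2.05 ± 0.16. Itgb3 rose by 1.49 ± 0.15 and Cdh1 was at least 4.79-fold higher. Itgb7, which pairs with the chain Itgae, showed -0.03 ± 0.15 and did not pass, while Itgae rose by 3.79 ± 0.35 with other probes at 0.74 to 3.91. Surface glycan enzymes were balanced, with 12 of 39 higher and 14 lower (7 rose and 23 fell with ribosomal protein scaling, 14 and 11 with equal medians, 11 and 10 over members detected on all 4 arrays, 10 and 8 without spleen replicate 1, 12 and 10 without spleen replicate 2). B3galt5 stood at 4.59 and 4.73 in spleen and 8.95 and 9.04 in intestine, a rise of 4.34 ± 0.13 (adjusted p = 7.7e-08). St3gal4, which builds selectin ligands, fell by 1.01 ± 0.15, and Fut7, of the same route, was detected on neither intestine array. Extl3, of heparan sulphate synthesis, fell by 1.34 ± 0.15 and Ndst2 fell by 1.13 ± 0.16, while Ext1 rose by 0.87 ± 0.16.

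Lymphoid transcription factors split within families. Of 51 tested 26 rose and 12 fell (16 rose and 21 fell with ribosomal protein scaling). Ikzf2 (Helios) stood at 5.46 and 5.32 in spleen and 8.47 and 8.14 in intestine, a rise of 2.91 ± 0.21 (limma adjusted p = 3.5e-06), while Ikzf1 (Ikaros), at 9.41 and 9.24 in spleen and 7.12 and 7.24 in intestine, fell by 2.14 ± 0.14 (adjusted p = 2.4e-06). Ikzf3 (Aiolos) rose by 1.49 ± 0.15 on its main probe, with others at -0.49 to 0.09. Klf4 rose by 3.09 ± 0.35, whereas Klf2 fell by 1.31 ± 0.18 and Klf3 fell by 2.2 ± 0.15. Zeb2, a factor of late NK maturation, was at 8.28 and 8.5 in spleen and 6.07 and 6.25 in intestine and fell by 2.23 ± 0.14. Ets1 and Ets2 rose by 1.26 ± 0.16 and 2.55 ± 0.14, and Elf4, of the same family, fell by 1.14 ± 0.14. Hic1, a repressor known in gut lymphocytes, rose by 2.66 ± 0.16. Tbx21 (T-bet), at -0.12, and Gata3, at 0.11, did not pass, and Eomes fell by 1.09 ± 0.14, with other probes at -1.22 to -0.01.

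Of 48 chromatin genes 8 rose, 10 fell and 30 did not pass (4 rose and 31 fell with ribosomal protein scaling, 12 and 9 with equal medians, 5 and 24 with the deposited scaling, 4 and 5 without spleen replicate 1, 5 and 6 without spleen replicate 2, 10 and 8 without intestine replicate 2). Among those called were several enzymes. Kdm6b, which removes a repressive mark from histone H3, stood at 4.84 and 5.05 in spleen and 8.01 and 8.03 in intestine, a rise of 3.08 ± 0.15 (limma adjusted p = 4.0e-07), and Kdm2b rose by 3.56 ± 0.13. Dot1l, in no list, rose by 3.69 ± 0.14. Dnmt1, the maintenance DNA methyltransferase, was at 7.67 and 7.72 in spleen and 5.82 and 5.99 in intestine and fell by 1.79 ± 0.14. Setdb1 fell by 1.09 ± 0.14 and Dnmt3b fell by 0.71 ± 0.14. Of 37 genes of mRNA decay and translation 13 rose and 4 fell (6 rose and 16 fell with ribosomal protein scaling, 12 and 13 with the deposited scaling). Zc3h12a (Regnase-1), which degrades cytokine mRNAs, was at 4.54 and 4.76 in spleen and 6.88 and 6.8 in intestine, a rise of 2.19 ± 0.14, and Zfp36 rose by 1.25 ± 0.24. Cnot3, of the deadenylase complex, fell by 1.55 ± 0.13.

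Genes of the nuclear lamina and its partners moved both ways, and the genes of calcium-binding S100 proteins named here fell. Of 28 tested 14 fell and 5 rose, with a median of -0.42 (22 fell and 3 rose with ribosomal protein scaling). Lmna (lamin A) stood at 6.44 and 6.37 in spleen and 10.48 and 9.82 in intestine, a rise of 3.74 ± 0.20 (limma adjusted p = 5.5e-07), and its partner Emd (emerin) rose by 2.12 ± 0.15. Sun1, which links the lamina to the cytoskeleton, fell by 1.48 ± 0.14. S100a4 was at 7.6 and 7.91 in spleen and 5.58 and 5.85 in intestine and fell by 2.04 ± 0.16 (adjusted p = 6.6e-06), with S100a6 at -1.98, S100a10 at -1.3 and S100a11 at -0.68. Lgals1 fell by 2.49 ± 0.14 and Lgals3 rose by 1.77 ± 0.21. Of 55 cytoskeleton and motility genes 21 fell and 11 rose (35 fell and 7 rose with ribosomal protein scaling, 12 and 17 with equal medians). Flna, which crosslinks actin below integrins, was at 9.8 and 9.66 in spleen and 8.3 and 8.56 in intestine and fell by 1.3 ± 0.14. Pfn1 fell by 1.17 ± 0.16 and Myo1f fell by 1.33 ± 0.15. Tubulin Tubb6 rose by 2.15 ± 0.17 and the GTPase Rhog by 1.36 ± 0.13.

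Of 26 granule genes 10 fell and 4 rose (17 fell and 3 rose with ribosomal protein scaling), and with equal medians 9 and 7. Gzmm stood at 7.37 and 7.21 in spleen and 5.33 and 5.22 in intestine and fell by 2.02 ± 0.14 (limma adjusted p = 2.7e-06), Prf1 fell by 1.22 ± 0.13, and Rab27a, which docks granules, fell by 1.16 ± 0.14. Release genes did not all follow, since Stx11 rose by 1.11 ± 0.13 and Stxbp2 and Vamp8, at 0.19 and 0.14, did not pass. Of 71 tested oxidative phosphorylation genes 30 fell and 4 rose (60 fell and 2 rose with ribosomal protein scaling, 18 and 3 with an offset of 4, 14 and 10 with equal medians, 18 and 3 without the detection filter, 10 and 3 without spleen replicate 1, 16 and 2 without spleen replicate 2), none of the 30 by 2-fold. Ndufa4 fell by 0.94 ± 0.14 and Uqcr11 fell by 0.97 ± 0.15. Ribosomal protein genes served as a check on scaling. Of 77 tested 13 rose and none fell, with a median of 0.06. The median became 0.71 with arrays scaled to equal medians, where 71 rose, and 0.34 with the deposited scaling, where 36 rose. So the number of calls depends on the scaling. Ribosomal protein scaling sets the arrays equal on these same genes, so its median of 0.07 is near 0 by construction.

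Genes outside the function lists with large differences were of mixed function. Plac8 stood at 5.12 and 5.22 in spleen and 9.53 and 10.01 in intestine, a rise of 4.6 ± 0.35 (limma adjusted p = 5.8e-06). Litaf, which acts in endosomes, rose by 4.4 ± 0.15 and Nr4a3, a nuclear receptor of early responses, by 4.38 ± 0.22. Arrdc4, an arrestin-like adaptor, rose by 4.06 ± 0.16. Igh-VJ558, an immunoglobulin heavy chain probe, was detected on both intestine arrays and neither spleen array, at 4.25 and 4.3 in spleen and 8.15 and 8.57 in intestine and at least 15.6-fold higher, in mice that cannot rearrange this locus. B and plasma cell markers summed to 46.2 and 43.4 in spleen and 46.1 and 78.4 in intestine beside it. Ly6c1 was at 11.46 and 11.26 in spleen and 7.48 and 7.52 in intestine and fell by 3.85 ± 0.18 (adjusted p = 2.7e-07), with skin at 11.28 and 10.77. Sema4a fell by 3.17 ± 0.15, the tetraspanin Tspan32 fell by 3.11 ± 0.13 and Cma1, a mast cell protease from the mast cell list, fell by 3.98 ± 0.20. Levels of Sema4a were 12.15 and 11.92 in spleen and 8.74 and 9.0 in intestine, with skin at 12.29 and 12.2.

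**Figure D4:**
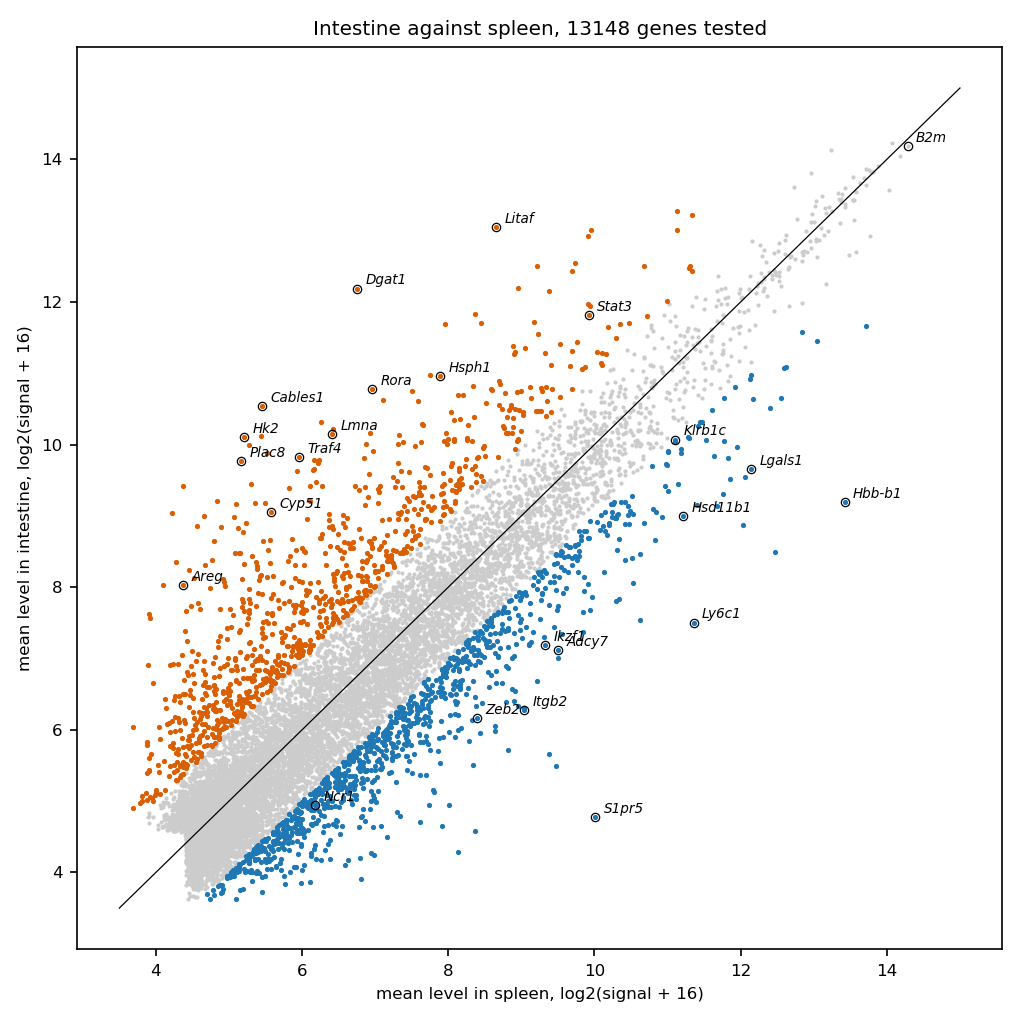
Mean log2 level of each of the 13148 genes tested in spleen (x axis) and intestine (y axis), with genes called and at least 2-fold higher in orange, at least 2-fold lower in blue and all others in grey; 24 genes are named. Most genes lie near the diagonal, with 920 orange and 976 blue points away from it.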

How the data were processed

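RNA of 6 sorted samples was hybridised to Illumina mouse BeadChips, and the 4 arrays of intestine and spleen are compared here. Per the labels' protocols, RNA was isolated with RNeasy Micro columns and amplified and labelled with the TotalPrep-96 kit. BeadStudio 1.5.1.3 is the tool named per the submitters' processing notes. Per the file headers, the deposited value is the average bead intensity of a probe, and its detection p-value is deposited beside it. The values show that background had been subtracted (30.7% to 32.3% of probes of the 4 arrays lie below 0) and that arrays had been scaled to a mean of 83.1. No source used here describes either step. Before that scaling the mean intensity was 137 and 131 on the spleen arrays and 82.7 and 50.9 on the intestine arrays, so dim genes are measured less well in intestine. In all, 18266 and 18530 of 46643 probes were detected in spleen and 16549 and 15279 in intestine, and the number of arrays limits the precision.

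With limma 3.58.1 (R 4.3.3), an offset of 16 was added, log2 taken and quantile normalization run over all 6 arrays. Probes with a detection p under 0.01 on both arrays of at least 1 of the 2 tissues were kept (18204, of which 17810 have a symbol), and the brightest stood for its gene. Tissue means were fitted on 6 arrays with lmFit and eBayes (3 residual degrees of freedom, prior 6.95, prior SD 0.15), with Benjamini-Hochberg adjustment over all genes. The fit was tested on simulated data. Symbols were updated through RefSeq gene names (GRCm38.p6).

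Replicate arrays correlated at 0.996 in spleen and 0.986 in intestine over genes, which are not replicates. Array names put replicate I of each tissue on 1 slide and replicate II on another. Deviations of same-numbered arrays correlated at 0.144 between spleen and intestine, 0.207 between spleen and skin and 0.111 between intestine and skin, so the number was taken as a pairing by slide, and it is a block in an alternative.

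The 52 gene lists (1362 genes tested) and the comparison were chosen with earlier results of these data known. Genes to name were set by rule: in each list up to 6 called genes of largest difference whose 4 differences between arrays share a sign, up to 3 of highest mean that did not pass, 12 unlisted rises and 12 falls, and fixed marker genes. Some genes that the rule selects are not reported here. Of 325 tested genes in the text, 110 lie outside the rule, chosen once their values had been seen. Another probe of a gene is quoted where its sign differs or its difference is under 25% of the printed one. Groups of 2 allow no outlier test.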

Additional observations from a re-analysis of the deposited data

How the results depend on the processing

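The counts of called genes, higher and lower were compared under 16 alternatives set with the plan and 1 scaling chosen after the data were seen. Leaving out 1 array each gave 4136 to 6669 called genes, 1715 to 2953 higher and 2421 to 3716 lower, with the lowest values without a spleen array, where the lone sample is assumed to vary like the other groups. Equal-median scaling gave 4440 higher genes, and ribosomal protein scaling 1034 higher and 7754 lower. The cause of these shifts was not tested. The fit with the replicate number as a block called 7119 genes, and changed no call of a gene named as rising or falling. The other alternatives moved these counts by less than 1.5 times. Of 281 named genes called, 275 kept call and direction under all 17. Those that did not were Bach2, Per3, Hspa1b, Bub1, Cd8b1 and Lat, and none of the 281 changed direction. Genes that had not passed also turned and passed. B2m was 1.01 with equal medians and 0.64 with the deposited scaling. With ribosomal protein scaling Eno1 was -0.53, H2-DMb1 -0.59, Pde7a -0.59, Pgk1 -0.40, Stat6 -0.51, Stim1 -0.55 and Vamp8 -0.46. Signal over background limits genes detected in 1 tissue only, where a fold is a lower bound.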

Other observations

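Genes better known from T cells, ILC2 and mast cells moved both ways. Higher in the intestine cells were 7 of 12 tested T cell genes, 6 of 8 ILC2 genes and 2 of 3 mast cell genes, and 3, 1 and 1 were lower. Many listed genes were detected on none of the 4 arrays, namely 6 of 18 for T cells, 7 of 16 for ILC2 and 10 of 15 for mast cells. The lists share members, such as Icos in those of T cells and ILC2. Ctla4, an inhibitory receptor, was detected on 1 of the 2 spleen arrays, with levels of 4.35 and 4.77 in spleen and 8.77 and 8.94 in intestine. Both intestine arrays were far higher, by 4.3 ± 0.20 (limma adjusted p = 2.8e-07). Icos, a costimulatory receptor, rose by 1.95 ± 0.13, Trat1, a T cell receptor adaptor, by 1.95 ± 0.13, and Cd3g, a CD3 chain, by 2.35 ± 0.25, while Cd3d gave -0.10 ± 0.16 and did not pass. Lat, an adaptor of the T cell receptor, fell by 0.42 ± 0.13 and Cd8b1 fell by 0.43 ± 0.13, and neither call held when either spleen array was left out. Ubash3a was detected on neither intestine array, at least 1.78-fold lower. Kit, the stem cell factor receptor, rose by 2.41 ± 0.13, and Hdc, which makes histamine, was detected on the intestine arrays only, at least 1.6-fold higher, while the mast cell protease Cma1 fell by 3.98 ± 0.20. Pecam1 and Thy1, listed with endothelium and stroma, rose by 1.74 ± 0.17 and 0.81 ± 0.13. Of the 25 genes of fibroblasts, endothelium and nerve on the array, 15 were detected on none of the 4 arrays. Klrg1, a receptor of mature NK cells and ILC2, was at 9.52 and 9.58 in spleen and 7.36 and 7.32 in intestine and fell by 2.21 ± 0.13 (adjusted p = 1.2e-06).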
